A study of Mus musculus with 38 samples.

Results

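The leukaemic marrow described here came from the 8 mice of a retroviral model in which the oncogene was MLL-AF10, and it was set against marrow from 4 normal mice. These 12 arrays, of 38 in the series, were chosen by their titles alone, and genes of chromosomes X and Y were set aside. For the leukaemia, marrow progenitors selected for the c-kit receptor were infected with a retrovirus carrying MLL-AF10 and transplanted into lethally irradiated, syngeneic C57BL/6 recipients, male or female. Their marrow was collected when the mice were euthanised with leukaemia. The controls were wild-type C57BL/6 mice, male or female, for which the labels name no irradiation or transplant. Ages and the promoter of the virus are not named in the labels. In both groups whole marrow had been cryopreserved before total RNA was extracted, so each array measured the mixture of cells in the marrow, and 1 array was run per mouse. The other 26 leukaemias of the series, in the cohorts MLL-AF1p (9 mice), MLL-GAS7 (5), MLL-AF9 (5) and MLL-ENL (7), were made in the same way. They entered the choice of probe sets, the search for array sets, the estimate of spread and 1 comparison at the end.

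MLL, encoded in the mouse by Kmt2a, is a histone methyltransferase that holds homeobox genes active in blood progenitors. In MLL-AF10 its DNA-binding front part is joined to a portion of AF10, the product of Mllt10, a partner of the histone methyltransferase DOT1L. Fusions of this kind are known from human leukaemias for keeping Hoxa9 and its cofactor Meis1 active in cells that would otherwise mature. Normal marrow, by contrast, is rich in maturing red cells, neutrophils and B cells.

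Values are log2 of the deposited intensity plus a pseudocount of 46.1, each array shifted to the same median. Differences are MLL-AF10 minus normal on that scale with the standard error (SE) of the fit, and a fold is 2 to the power of the difference. The pseudocount makes folds of dim genes too small. A gene is called where its Benjamini-Hochberg adjusted p in limma was under 0.05, and "rose" and "fell" are used for called genes only. The leukaemia arrays fell into 2 sets that cut across all 5 cohorts and are named by no label. A search of 28260 probe sets on the leukaemia arrays alone gave 38 markers of the sets. Of the MLL-AF10 mice, AF10_805A, AF10_782A and AF10_798A (named by the end of their array titles) were in the first set and the other 5 in the second. All 4 normal arrays were also placed in the second set, although between 18.4% and 47.4% of their markers were nearer the first. This share was at most 7.9% in the 5 MLL-AF10 arrays of the second set, so the normal arrays matched that set less well. The actin 3′ to 5′ ratio, a sign of RNA integrity, averaged 0.399 ± 0.165 in MLL-AF10 arrays and 0.137 ± 0.063 in normal arrays (log2, SD, n = 8 and 4, exact permutation test, adjusted p = 0.0485). The 18S ribosomal RNA signal averaged 8.61 ± 1.37 in MLL-AF10 arrays and 6.57 ± 0.68 in normal arrays (log2, SD, same test, adjusted p = 0.0485), with mouse AF10_798A highest. The Gapdh 3′ to 5′ ratio, a second sign of RNA integrity, averaged -0.21 ± 0.12 in MLL-AF10 arrays and -0.25 ± 0.10 in normal arrays. The hybridisation controls averaged 11.75 ± 0.53 and 11.60 ± 0.73 (for both, log2, SD, same test, adjusted p = 0.693). Whether these signs contributed to any result was not tested. The normal arrays read high for genes of the lineages found in marrow, such as Hemgn, Cd79a and Camp, whose values follow.

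Of 12850 autosomal genes tested, 3186 rose (24.8%) and 1517 fell (11.8%) in MLL-AF10 marrow, 36.6% in all. A change of at least 2-fold was called for 923 genes that rose (7.18%) and 878 that fell (6.83%). The falls reached further than most of the rises: the genes that fell most were those of red cells, platelets and eosinophils, and those that rose most included Hoxa9, Meis1 and Mycn. The median change over all autosomal genes was 0.15. With the intensities as deposited the median was 0.03 and higher genes made up 56.2% of 4732 calls, and with quantile normalization these were 0.07 and 58.5% of 4846. In 15.8% of genes all 8 MLL-AF10 mice lay above all 4 normal mice, and in 8.01% all 8 lay below. Counts given below for gene lists are to be read against these shares of called and non-overlapping genes.

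**Figure D1:**
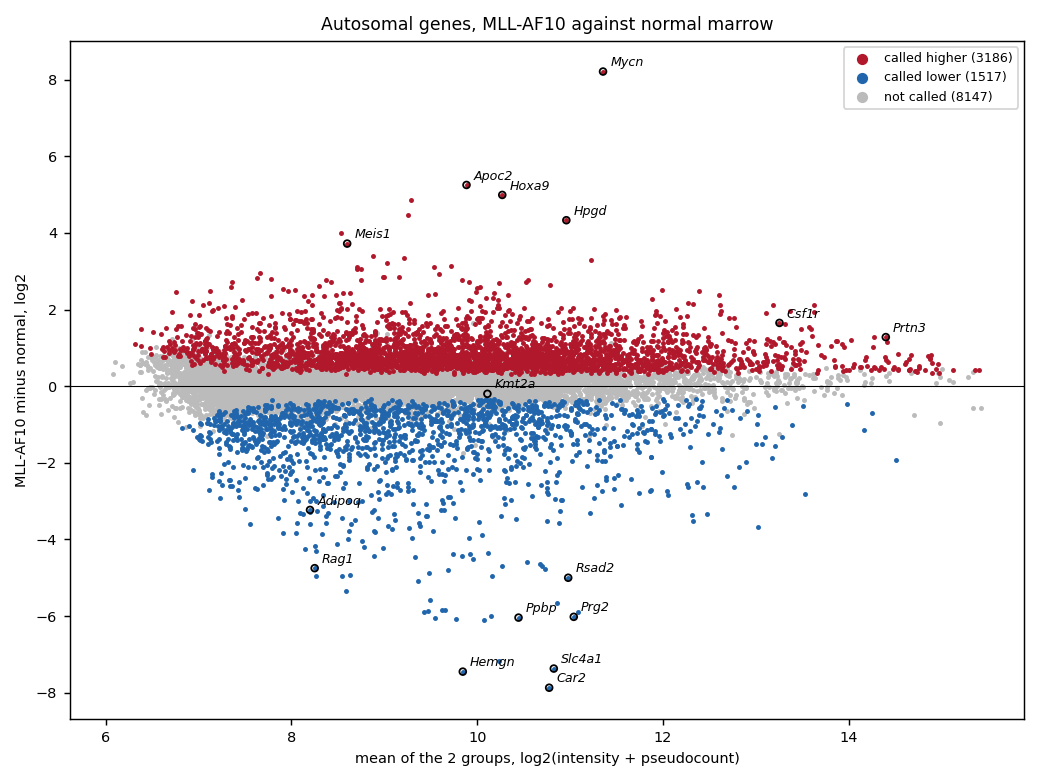
Each point is 1 of 12850 autosomal genes, with the mean of the MLL-AF10 and normal group means on the x axis and their difference on the y axis (both log2). Genes called higher (3186) and lower (1517) are coloured, and the falls of red cell genes such as Car2 and Hemgn extend below -7, a distance that 1 gene, Mycn, passed upwards.

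Genes of the HoxA cluster on chromosome 6, homeobox factors of early blood cells, were higher in MLL-AF10 marrow. Hoxa9 was between 12.15 and 13.18 in the 8 MLL-AF10 mice (median 12.76), against 8.11, 7.89, 7.27 and 7.84 in the 4 normal mice. Hoxa9, a homeobox factor that sustains progenitor growth, thus rose by 4.99 ± 0.24 (31.7-fold, adjusted p = 6.45e-19), with no overlap between the groups, and its other kept probe set rose as well (2.67 ± 0.24). Of 8 HoxA genes measured, 6 rose and 0 fell, with a median change of 1.66 against 0.15 over all genes. Hoxa10 rose 8.72-fold, Hoxa5 6.82-fold, Hoxa3 3.36-fold, Hoxa7 2.97-fold and Hoxa2 2.26-fold (adjusted p from 1.54e-09 to 0.00137). In each of these 6 genes all 8 mice lay above all normal mice. Hoxa11 and Hoxa13, at the far end of the cluster, differed by 0.32 ± 0.30 and 0.37 ± 0.20 and were not called. The 6 genes that rose lie between positions 52162417 (Hoxa2) and 52240854 (Hoxa10) of chromosome 6 in build GRCm38.p6, and the 2 uncalled genes follow, from 52242105 (Hoxa11) to 52260880 (Hoxa13). Across the 8 mice the mean of the HoxA genes above normal marrow ranged from 1.75 in AF10_780A and AF10_799A to 2.20 in AF10_783A, and the normal mice spanned -0.15 to 0.18. The HoxB cluster gave 0 calls in 4 genes, with differences from -0.69 (Hoxb4) to -0.12 (Hoxb2), although another kept probe set of Hoxb4 fell by 1.09 (adjusted p = 0.00878).

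Beyond HoxA, 10 of 17 other known targets of MLL fusions rose and 0 fell, with a median change of 1.07. Meis1 was between 9.93 and 11.44 in the 8 MLL-AF10 mice (median 10.27), against 7.12, 7.45, 6.14 and 6.26 in the 4 normal mice. Meis1, which binds DNA with Hoxa9, rose by 3.72 ± 0.29 (13.2-fold, adjusted p = 3.52e-13), and its 3 kept probe sets all rose. Pbx3, another member of these DNA-binding complexes, rose 5.99-fold. Cdk6, a kinase that drives cells out of G1, rose 3.65-fold with little spread, at 13.23 to 13.86 in MLL-AF10 mice and 11.53 to 11.86 in normal mice. Eya1, a phosphatase and transcriptional cofactor, rose 10.6-fold, but 1 mouse, AF10_799A, was at 7.02, inside the normal range of 6.80 to 7.40. Flt3, the receptor kinase of early progenitors, had a difference of 1.25 ± 0.55 that was not called (adjusted p = 0.0724), although all 8 mice, at 9.12 to 11.59, lay above the normal mice, at 8.90 to 9.05. Satb1, a chromatin organiser of lymphoid cells, showed -1.74 ± 0.77 and was not called, with MLL-AF10 mice spread over 5.74 to 10.87.

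Mycn, a MYC family factor, had the largest rise of any autosomal gene. Mycn was between 15.04 and 16.21 in the 8 MLL-AF10 mice (median 15.38), against 7.20, 7.87, 6.58 and 7.37 in the 4 normal mice. The difference was 8.21 ± 0.34 (297-fold, adjusted p = 6.71e-21), and the groups lay far apart. This value came from 1 probe set. The other kept probe set for Mycn, given as 1 gene by the same annotation, differed by -0.76 ± 0.33 (adjusted p = 0.0703 over all kept probe sets) and did not show the rise. Myc itself, the family's founding member, rose 1.88-fold (adjusted p = 0.0482). The call on Myc was marginal: its adjusted p ranged from 0.00203 to 0.153 over the alternatives, and it was lost when any 1 normal mouse was left out.

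The remaining genes among the 12 largest rises were varied in function. Apoc2 was between 11.17 and 13.31 in the 8 MLL-AF10 mice (median 12.57), against 6.45, 8.71, 8.12 and 5.75 in the 4 normal mice. Apoc2, the cofactor of lipoprotein lipase, rose 38.1-fold, Slc4a8, a bicarbonate transporter, 28.9-fold, and Hpgd, which breaks down prostaglandins, 20-fold. Sgip1, an endocytosis adaptor, and its neighbour on chromosome 4, Tctex1d1, a dynein light chain family member, rose 22-fold and 16-fold. F10, coagulation factor X, rose 9.79-fold and Ly6k, a surface protein of the Ly6 family, 10.1-fold. In all of these 7 genes the 8 mice lay above all 4 normal mice, but another kept probe set of Slc4a8 differed by -0.42 and did not show the rise. Sash1 was between 10.05 and 11.20 in the 8 MLL-AF10 mice (median 10.64), against 9.08, 8.97, 5.84 and 5.80 in the 4 normal mice. Sash1, a scaffold protein, rose 9.23-fold against normal mice that fell into a high and a low pair.

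**Figure D2:**
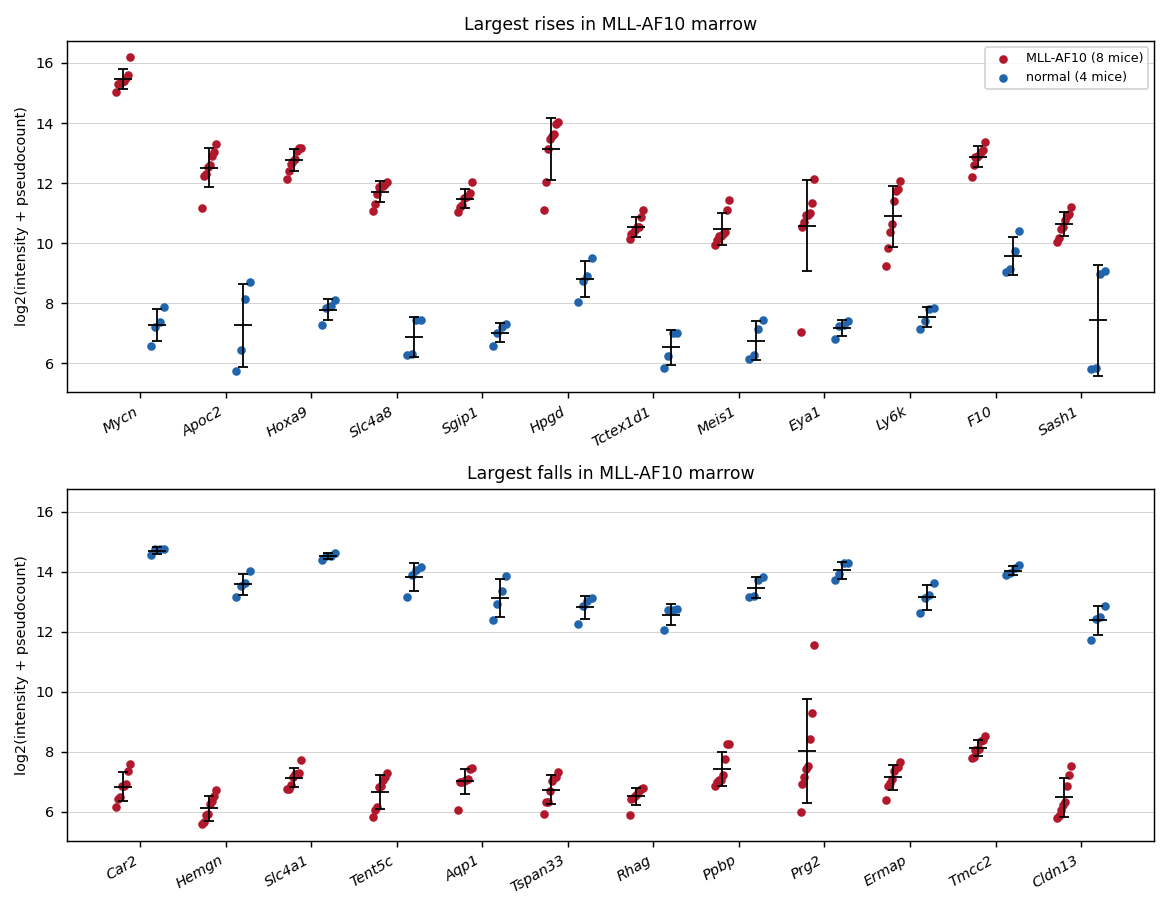
Values of the 12 largest rises (upper) and 12 largest falls (lower) in each mouse, with MLL-AF10 left of normal for each gene. The y axis is log2(intensity + pseudocount), points are mice, and bars give the mean and SD. All 8 MLL-AF10 mice lie outside the normal range for every gene shown except Eya1, where 1 mouse is at 7.02.

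Of the genes that form the fusion, Mllt10 was higher and Kmt2a was not called. Mllt10 was between 10.98 and 11.61 in the 8 MLL-AF10 mice (median 11.28), against 10.48, 10.70, 10.23 and 10.09 in the 4 normal mice. Mllt10, the partner gene, rose by 0.93 ± 0.17 (1.91-fold, adjusted p = 3.47e-05), and all 4 of its kept probe sets were called higher. Kmt2a differed by -0.20 ± 0.14 on the probe set that stood for it (adjusted p = 0.275), while its other kept probe set fell by 1.01 (SE 0.20, adjusted p = 0.000102). The parts of the viral transcript that these probe sets would read were not determined. Among 25 genes of the MLL, DOT1L and elongation complexes, 4 rose and 6 fell, with a median of 0.13 near that of all genes. Those that fell most were Aff3 (11.8-fold lower) and Ell2 (6.19-fold lower), both elongation factors that B cells and plasma cells express, then Mllt3 (3.87-fold lower), the AF9 gene, and Psip1 (2.43-fold lower), which tethers MLL to chromatin. Mllt1, the ENL gene, rose 2.59-fold on 1 probe set and differed by -0.28 on the other (adjusted p = 0.695). Of 18 Polycomb genes, whose products oppose MLL at many promoters, 7 rose (38.9%) and 1 fell (5.56%), against 24.8% and 11.8% over all genes. The median of the Polycomb list was 0.09, not above the 0.15 of all genes. Jarid2 was between 11.79 and 12.32 in the 8 MLL-AF10 mice (median 11.94), against 10.53, 10.56, 10.47 and 10.32 in the 4 normal mice. Jarid2, an accessory subunit of the complex that methylates H3K27, rose 2.83-fold. Mtf2, another, rose 2.02-fold on 1 probe set, but its other 4 kept probe sets differed by 0.33, 0.16, 0.09 and -0.00 and were not called, and the mean of the 5 was 0.32 higher (adjusted p = 0.125). Bmi1 rose 1.79-fold, and Cbx6 fell to 7.82 ± 0.37 in MLL-AF10 marrow, against 9.84 ± 0.15 in normal marrow. Among 21 DNA methylation enzymes and histone demethylases, 6 rose (28.6%) and 2 fell (9.52%), near the 24.8% and 11.8% over all genes. The largest rise was that of Tet2, which oxidises methylcytosine (3.2-fold), and the largest fall that of Kdm7a (2.96-fold lower).

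Red cell genes were the most depleted group. Of 17 genes of the red cell membrane and globin list, 16 fell and 0 rose, with a median of -5.83, and in all 16 the 8 MLL-AF10 mice lay below all normal mice. Car2 was between 6.17 and 7.60 in the 8 MLL-AF10 mice (median 6.86), against 14.75, 14.77, 14.55 and 14.75 in the 4 normal mice. Car2, a carbonic anhydrase of red cell precursors, fell by 7.87 (SE 0.39, 234-fold lower, adjusted p = 7.02e-19). Hemgn was between 5.59 and 6.74 in the 8 MLL-AF10 mice (median 6.08), against 14.03, 13.51, 13.14 and 13.61 in the 4 normal mice. Hemgn, a nuclear protein of maturing red cells, fell by 7.45 (SE 0.28, 175-fold lower). Slc4a1 was between 6.75 and 7.73 in the 8 MLL-AF10 mice (median 7.21), against 14.51, 14.52, 14.38 and 14.63 in the 4 normal mice. Slc4a1, the band 3 anion exchanger, was 166-fold lower, the water channel Aqp1 69.3-fold, the Rh-associated glycoprotein Rhag 66.2-fold, and the blood group protein Ermap 63.6-fold. The tetraspanin Tspan33, the poly(A) polymerase Tent5c, Tmcc2 and Cldn13, a claudin, were 67.3-fold, 143-fold, 59.9-fold and 59.6-fold lower. In MLL-AF10 marrow several of them, such as Hemgn, read near the lowest value the scale allows, so these folds are limited by the pseudocount. Hba-a1 was the exception on the list, but its probe set was dim in both groups, at 5.93 to 8.10 in MLL-AF10 mice and 5.99 to 7.86 in normal mice. In whole marrow, fewer red cell precursors and less of these RNAs per cell cannot be told apart.

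Relative to the spread within groups, the largest differences were also in red cell genes: Redrum, a long non-coding RNA of mouse red cell precursors, Bpgm, which makes the metabolite that lowers the oxygen affinity of haemoglobin, Hemgn, Ermap and Epb42, the protein 4.2 of the membrane skeleton. Their differences were 14.9 to 17.0 times the SD within groups. Bpgm was at 7.67 to 8.54 in MLL-AF10 mice, against 12.95 to 14.08 in normal mice.

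Haem and iron genes fell as a block, 16 of 17, with a median of -2.49. Blvrb, biliverdin reductase B, was 27.3-fold lower, and the haem pathway enzymes Cpox, Alad and Fech were 11.9-fold, 11.4-fold and 10-fold lower. Slc25a37, the mitochondrial iron importer, was 11.4-fold lower. The gene of the list that rose was Alas1, the first haem enzyme outside red cells (2.3-fold). Among the 12 regulators of red cell formation 10 fell and 1 rose. Tal1 was between 5.72 and 7.54 in the 8 MLL-AF10 mice (median 6.73), against 12.69, 12.32, 11.65 and 12.50 in the 4 normal mice. Tal1, the factor that opens the red cell programme with GATA1, was 48-fold lower (adjusted p = 9.11e-17). Klf1 was between 7.45 and 8.55 in the 8 MLL-AF10 mice (median 7.96), against 13.13, 12.52, 12.04 and 12.79 in the 4 normal mice. Klf1, the activator of adult globin, was 26-fold lower, Zfpm1, the FOG1 cofactor, 20.6-fold, Sox6 15.9-fold, Epor, the erythropoietin receptor, 9.43-fold and Gfi1b 7.97-fold. Nfe2 and Ldb1 fell less, by 0.66 and 0.67 (SE 0.16 and 0.22). Lyl1, a relative of Tal1, rose 2.58-fold, with MLL-AF10 mice at 12.58 to 13.10 and normal mice at 11.44 to 11.59. Kit, the receptor by which the transplanted cells were selected, differed by 0.22 ± 0.36 and was not called, with the groups overlapping.

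Promoters of 3 of the largest falls are shown because each holds a GATA word, the letters bound by GATA1, close to the start site. They are 250 bases before the start, from RefSeq in build GRCm38.p6, written 5′ to 3′ on the gene's strand with AGATAA or TGATAA, or its reverse complement, in capitals.
Hemgn (chr4:46404184-46404433, minus strand): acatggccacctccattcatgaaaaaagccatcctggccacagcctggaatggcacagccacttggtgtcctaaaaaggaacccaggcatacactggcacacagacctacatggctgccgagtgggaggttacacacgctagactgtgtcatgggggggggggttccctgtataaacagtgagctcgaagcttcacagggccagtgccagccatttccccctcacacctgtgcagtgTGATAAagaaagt
Rhag (chr17:40810899-40811148, plus strand): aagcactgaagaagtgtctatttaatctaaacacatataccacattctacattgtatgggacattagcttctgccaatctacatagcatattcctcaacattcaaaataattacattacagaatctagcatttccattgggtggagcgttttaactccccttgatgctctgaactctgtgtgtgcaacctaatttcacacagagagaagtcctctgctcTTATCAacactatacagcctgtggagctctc
Ermap (chr4:119189996-119190245, minus strand): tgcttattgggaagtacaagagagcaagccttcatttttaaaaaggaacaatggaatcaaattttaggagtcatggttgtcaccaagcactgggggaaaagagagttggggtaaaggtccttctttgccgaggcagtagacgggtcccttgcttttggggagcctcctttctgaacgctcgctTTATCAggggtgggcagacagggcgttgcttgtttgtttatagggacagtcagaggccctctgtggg
The word began at position -13 relative to the start in Hemgn, -31 in Rhag and -67 in Ermap. Of the 42 genes in the 3 red cell lists that fell, 30 had a promoter in the table, and 15 of their 47 promoter windows (31.9%) held the word on either strand. Over all 32851 promoter windows of this length the share was 16.6%. The lists differed: the word was in 6 of 10 windows of the membrane and globin genes that fell, 6 of 18 windows (33.3%) of the regulators and 3 of 19 windows (15.8%) of the haem and iron genes. A match describes letters and not binding.

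Platelet genes fell in 13 of 16 cases (median -1.83, 0 higher). Ppbp was between 6.84 and 8.26 in the 8 MLL-AF10 mice (median 7.13), against 13.71, 13.83, 13.18 and 13.15 in the 4 normal mice. Ppbp, the platelet basic protein, was 66-fold lower (adjusted p = 1.22e-18), Pf4, platelet factor 4, 23.9-fold, Tubb1, the platelet tubulin, 10.4-fold and Vwf, von Willebrand factor, 10.2-fold. Gp6 differed by -0.66 ± 0.30 and was not called. Gp1bb, a chain of the platelet receptor for von Willebrand factor, was not called on the brighter probe set that stood for it (-0.04 ± 0.21), but its other kept probe set fell by 3.14 (SE 0.26, adjusted p = 3.9e-12).

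B cell genes fell in 19 of 20 cases, with a median of -2.92. In 18 of them all 8 mice lay below the normal range, against 8.01% of all genes. Rag1, the recombinase of lymphocyte precursors, was 26.8-fold lower, at 5.60 to 6.65 in MLL-AF10 mice, against 10.74, 11.04, 9.96 and 10.77 in normal mice. Cd79a was between 6.71 and 8.40 in the 8 MLL-AF10 mice (median 7.68), against 12.13, 12.36, 11.50 and 12.21 in the 4 normal mice. All 8 leukaemic marrows lay below the normal range, and Cd79a, a chain of the B cell receptor, was 21.5-fold lower (adjusted p = 3.62e-13). Pou2af1, a B cell coactivator, was 21.9-fold lower, Spib 20.7-fold and Vpreb1, of the surrogate light chain, 14.2-fold. Cd37, a tetraspanin that myeloid cells also carry, differed by 0.18 ± 0.24 and was the only uncalled member. T and NK cell genes fell in 8 of 17 cases with a median of -0.86. Cd3d, of the T cell receptor complex, was 5.39-fold lower, although its normal values were themselves uneven (11.25, 9.38, 7.74 and 7.62). Nkg7 and Klrd1, of cytotoxic cells, were 4.53-fold and 2.7-fold lower, and Cd5 (0.03 ± 0.29) and Zap70 (-0.92 ± 0.55) were not called. Il7r, the interleukin 7 receptor of lymphoid precursors, was 6.99-fold lower.

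Plasma cell genes did not move as 1 group. Of 9 genes 4 fell: Mzb1 (5.55-fold lower), Jchain (5.04-fold), Irf4 (2.25-fold) and Derl3 (1.49-fold). Xbp1, which drives secretion in plasma cells and also acts in myeloid cells, rose 2.29-fold in all 8 mice beyond the normal range. Prdm1, Sdc1, Slamf7 and Fkbp11 were not called, with differences from -0.57 to 0.43, although another kept probe set of Sdc1 fell by 1.05 (adjusted p = 0.0357). Among 12 dendritic cell genes 4 fell, led by Ly6d (8.4-fold lower) and Siglech (3.55-fold lower), both of plasmacytoid and lymphoid precursors, and 0 rose.

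Most calls among eosinophil and mast cell genes were falls. Of 12 genes of the eosinophil, basophil and mast cell list, 6 fell and 1 rose. Epx, eosinophil peroxidase, was 58.7-fold lower, at 5.74 to 7.34 in MLL-AF10 mice, against 12.17 to 12.73 in normal mice. Prg2 was between 5.99 and 11.56 in the 8 MLL-AF10 mice (median 7.48), against 13.72, 14.28, 14.28 and 13.92 in the 4 normal mice. Prg2, the major basic protein, was 64.8-fold lower, with mouse AF10_783A at 11.56, far above the median. Mcpt8, Fcer1a and Ms4a2, of basophils and mast cells, were 3.67-fold, 4.4-fold and 4.32-fold lower. Cpa3, the mast cell carboxypeptidase, was not called (-0.43 ± 0.78) and spanned 7.47 to 12.48 in MLL-AF10 mice. Siglecf, a lectin of eosinophils that other myeloid cells can carry, rose 3.57-fold, in 7 of 8 mice above the normal range.

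Calls among genes of the neutrophil lineage differed by stage. Of 10 genes of the primary granules, which form in promyelocytes, 5 rose and 2 fell. In 2 of the 10 all 8 MLL-AF10 mice lay above all 4 normal mice. The mean difference of this list from normal marrow ran from -0.19 to 0.74 in MLL-AF10 mice and overlapped the normal mice, at -0.47 to 0.53. Prtn3 was between 14.63 and 15.57 in the 8 MLL-AF10 mice (median 15.06), against 12.94, 13.96, 14.46 and 13.69 in the 4 normal mice. Prtn3, proteinase 3, rose by 1.28 ± 0.19 (2.42-fold, adjusted p = 1.2e-06) with no overlap. Ctsg, cathepsin G, rose 2.47-fold, Elane, neutrophil elastase, 1.8-fold, Srgn, the granule proteoglycan, 1.59-fold, and Gfi1, a repressor needed for granulocyte formation, 3.17-fold. Mpo, myeloperoxidase, was bright in both groups and not called, at 14.31 to 15.51 in MLL-AF10 mice and 14.33 to 15.21 in normal mice. Fcnb, ficolin B, and Nkg7 fell 3.33-fold and 4.53-fold.

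The promoters of 3 of the 5 primary granule genes that rose hold the ETS word GAGGAAG, the form of the PU.1 site known from myeloid protease genes, and are shown for that reason. They are 250 bases before the start, from RefSeq in build GRCm38.p6, 5′ to 3′ on the gene's strand with the word in capitals.
Prtn3 (chr10:79879417-79879666, plus strand): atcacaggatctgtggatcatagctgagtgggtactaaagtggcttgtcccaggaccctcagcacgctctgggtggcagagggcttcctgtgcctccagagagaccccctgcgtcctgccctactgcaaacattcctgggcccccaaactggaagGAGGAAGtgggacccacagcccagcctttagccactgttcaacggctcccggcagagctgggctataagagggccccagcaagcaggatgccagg
Elane (chr10:79886062-79886311, plus strand): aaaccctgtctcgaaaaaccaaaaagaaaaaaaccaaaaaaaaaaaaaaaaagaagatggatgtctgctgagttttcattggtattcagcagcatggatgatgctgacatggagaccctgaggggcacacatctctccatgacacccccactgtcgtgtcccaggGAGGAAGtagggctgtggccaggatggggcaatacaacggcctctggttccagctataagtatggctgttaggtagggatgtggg
Ctsg (chr14:56102575-56102824, minus strand): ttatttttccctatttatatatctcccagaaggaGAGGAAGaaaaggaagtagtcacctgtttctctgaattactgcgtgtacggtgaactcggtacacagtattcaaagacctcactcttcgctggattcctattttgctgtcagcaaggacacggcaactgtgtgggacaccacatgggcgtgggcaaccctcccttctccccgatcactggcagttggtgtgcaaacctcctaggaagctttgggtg
The word began at position -95 relative to the start in Prtn3, -85 in Elane and -216 in Ctsg. On either strand it was in 3 of the 7 windows of those 5 genes (42.9%) and in 10.6% of all 32851 windows. It was also in 3 of 9 windows (33.3%) of the late neutrophil genes that fell.

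Genes of the later neutrophil granules and of the mature cell went the other way: of 22 measured, 11 fell and 1 rose, with a median of -1.13. Ltf, lactoferrin, was 7.06-fold lower, at 9.42 to 13.88 in MLL-AF10 mice and 14.70 to 15.29 in normal mice. Itgb2l, an integrin of mouse neutrophils, was 7.32-fold lower, Mmp9, gelatinase B, 6.19-fold and Il1b, interleukin 1 beta, 5.71-fold. Stfa3, a stefin protease inhibitor of mouse neutrophils, rose 6.42-fold on the mean with the widest values on the list. The list's mean difference from normal marrow was -0.22 in mouse AF10_805A, -0.35 in AF10_798A and -0.77 in AF10_782A, the 3 mice of the first array set. In the second set it was -0.74 in AF10_797A and AF10_802A, -1.51 in AF10_780A, -1.97 in AF10_799A and -2.63 in AF10_783A. The normal mice spanned -0.33 to 0.45, so AF10_805A lay inside their range and AF10_798A just below it. With the arrays of the second set alone the list's median was -1.45.

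Monocyte genes rose in 13 of 20 cases with 0 lower and a median of 1.32. Ms4a6c, a surface protein of monocytes, rose 5.57-fold, the chemokine Ccl9 5.19-fold, Ly86, the partner of RP105, 3.89-fold and F13a1, coagulation factor XIII A, 3.84-fold. Csf1r was between 13.22 and 14.33 in the 8 MLL-AF10 mice (median 14.23), against 12.20, 12.64, 12.70 and 12.19 in the 4 normal mice. Csf1r, the receptor for the monocyte growth factor M-CSF, rose by 1.65 ± 0.24 (3.13-fold, adjusted p = 6.94e-07). Klf4 (0.69 ± 0.48) and Ccl6 (-0.98 ± 0.44) were not called. The monocyte mean lay between 1.09 and 1.57 above normal marrow in 7 mice and at 0.27 in mouse AF10_783A, against -0.31 to 0.36 in normal mice.

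Resident macrophage genes fell in 10 of 18 cases, yet 2 of the list were among the strong rises. The complement genes C1qa and C1qc were 13.7-fold and 9.7-fold lower and Mrc1, the mannose receptor, 5.72-fold lower. Gpnmb was between 9.66 and 12.40 in the 8 MLL-AF10 mice (median 10.88), against 7.62, 7.75, 8.59 and 7.98 in the 4 normal mice. Gpnmb, a lysosomal glycoprotein of activated macrophages, rose 8.67-fold and Hpgd, named above, 20-fold, both in all 8 mice beyond the normal range. Siglec1 (0.30 ± 0.44) was not called, nor was Vcam1 (-1.31 ± 0.59), of which the other 2 kept probe sets fell by 1.41 and 1.49. Lysosome genes rose in 18 of 25 cases with 0 lower and a median of 1.02. In 17 of the 25 all 8 mice lay above the normal range, against 15.8% of all genes. Ctsa was between 12.72 and 13.39 in the 8 MLL-AF10 mice (median 13.15), against 11.39, 11.35, 11.42 and 10.98 in the 4 normal mice. Ctsa, a lysosomal carboxypeptidase, rose 3.48-fold, Gusb, beta-glucuronidase, 3.3-fold, Cd68 3.07-fold, and the cholesterol carriers Npc2 and Npc1 3.04-fold and 2.6-fold. Tfeb, the factor that activates lysosome genes, differed by -0.42 ± 0.18 and was not called.

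For some of the genes given with a fold, another kept probe set was not called. It differed by 0.10 for Ctsa, 0.08 for Ms4a6c and -0.04 for Pdia3. In the direction of the gene it differed by 0.90 for Cx3cr1, 0.81 for Il6ra, 0.54 for Mybbp1a and -0.59 for Nusap1. An uncalled probe set also differed by 0.49 for Itgb2l, -0.16 for Cxcl12, -0.10 for Bcl2l2, 0.01 for Hoxa3 and 0.21 for Itga5. Each of these last genes had a further probe set called in the gene's direction.

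**Figure D3:**
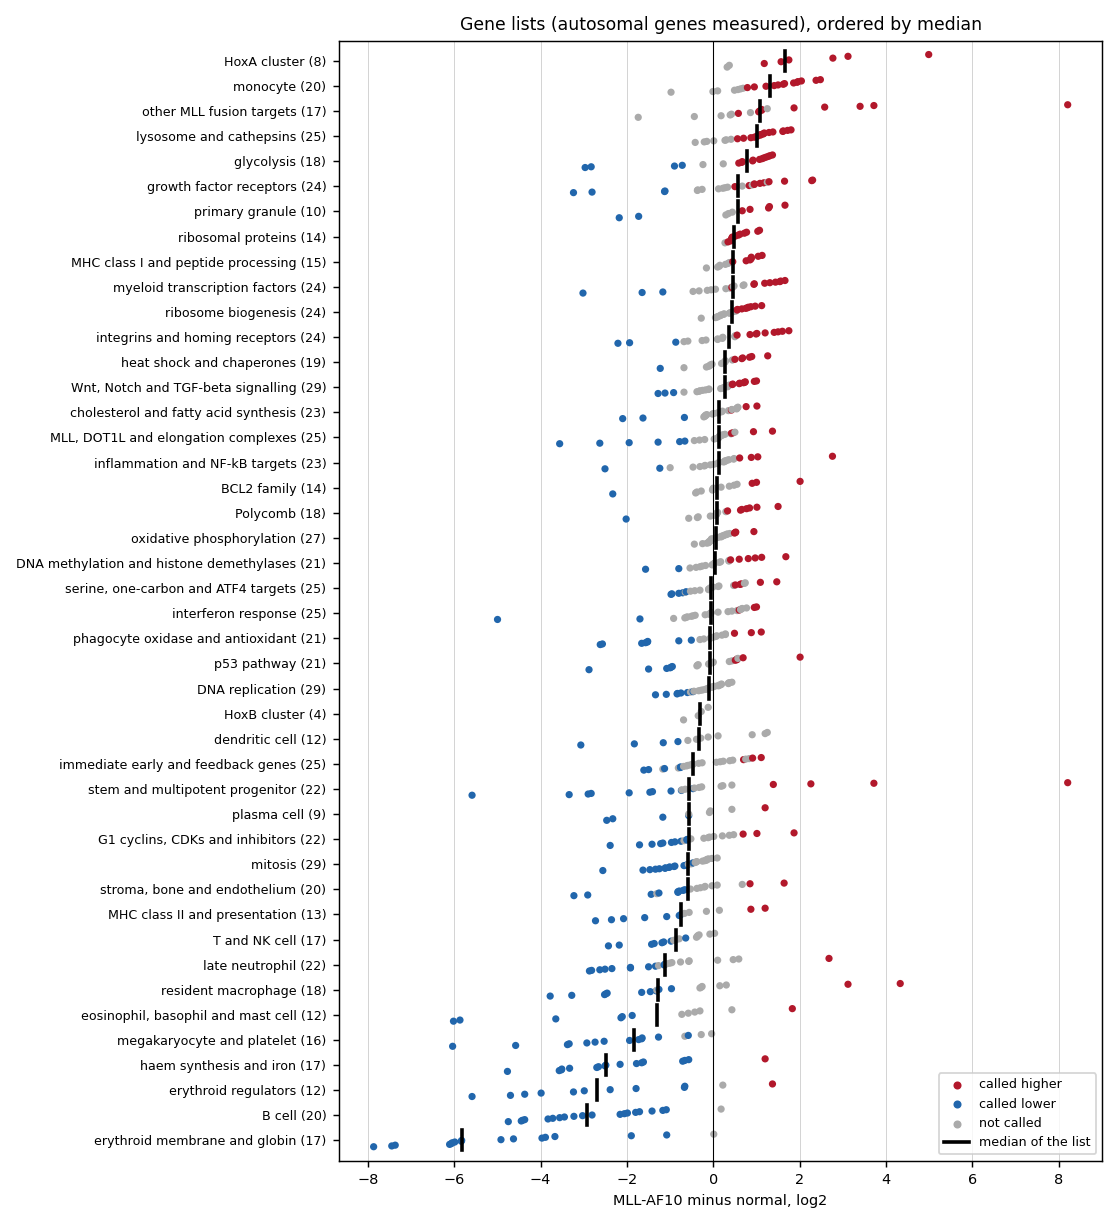
Each row is 1 of 44 gene lists with the number of autosomal genes measured, and each point is the difference of 1 gene, MLL-AF10 minus normal (log2), coloured by its call. Black bars are list medians, which run from -5.83 for the red cell membrane list to 1.66 for the HoxA cluster.

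Antioxidant and oxidase genes gave 3 rises and 8 falls in 21. Those that fell most were Prdx2, the peroxiredoxin of red cells (6.15-fold lower), Gclm and Gclc, the subunits that start glutathione synthesis (5.95-fold and 2.88-fold), Hmox1 (3.15-fold) and Cat, catalase (2.98-fold). Stromal and bone genes fell in 9 of 20 cases. Adipoq, adiponectin, was 9.4-fold lower, Cxcl12, the chemokine that retains progenitors in marrow, 7.51-fold, Col1a2 2.71-fold and Igfbp4 2.4-fold. Lpl, lipoprotein lipase, whose cofactor Apoc2 is described above, rose 3.12-fold, in 3 of 8 mice beyond a wide normal range (11.88, 10.67, 8.42 and 10.14).

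Stem and progenitor genes were not raised as a list. Of 22 measured, 4 rose and 10 fell (median -0.56), and the falls included Tal1 and Vwf, named above for red cells and platelets, and Pdzk1ip1 (7.46-fold lower). The rises were Meis1 and Mycn, with Cd34, an antigen of progenitors (4.79-fold), and Cd48, which also marks maturing myeloid cells (2.62-fold). Erg (0.43 ± 0.24) and Gata2 (-0.73 ± 0.36) were not called. Of 24 myeloid transcription factors 10 rose (41.7%) and 3 fell (12.5%), against 24.8% and 11.8% over all genes. Cebpa, which commits progenitors to the granulocyte and monocyte lineages, rose 2.94-fold and Cebpb 2.91-fold. Trib2, a pseudokinase that degrades the Cebpa protein, was 8.14-fold lower and Id3 3.13-fold lower. Of 24 growth factor receptors 10 rose (41.7%) and 4 fell (16.7%), beside the same shares over all genes. Ifngr1, the interferon gamma receptor, rose 4.85-fold with mice at 12.66 to 13.24, against 10.11 to 11.17 in normal mice. Il6ra, the interleukin 6 receptor, rose 4.91-fold, but it followed the array sets, with MLL-AF10 means of 11.99 in the first set and 10.92 in the second. Its difference was 1.99 with the array set as a term and 1.89 with the arrays of the second set alone, and it was called in both. Among 24 integrins and homing receptors 9 rose (37.5%) and 3 fell (12.5%), the latter near the 11.8% over all genes. The rises included Cx3cr1, the fractalkine receptor (2.82-fold), Itga5 (3.03-fold) and Itgb5 (3.35-fold), while Cd9 and Itgb3, both abundant on platelets, were 4.63-fold and 3.83-fold lower. For Itga4 (0.51 ± 0.26, not called) another kept probe set fell by 0.63 (SE 0.20).

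Antigen presentation split by class. MHC class II genes fell in 7 of 13 cases and rose in 2. Cd74 was between 9.19 and 12.76 in the 8 MLL-AF10 mice (median 10.45), against 13.10, 13.57, 13.54 and 13.44 in the 4 normal mice. Cd74, the invariant chain, was 6.63-fold lower, H2-Eb1 4.23-fold, H2-Aa 5.14-fold and H2-Ob, which B cells express, 3-fold. H2-DMa, part of the peptide exchanger, rose 2.3-fold. Class I and peptide processing genes rose in 8 of 15 cases with 0 lower, among them the chaperones Pdia3 (2.18-fold) and Calr (2.06-fold) and the immunoproteasome subunits Psmb10 (1.84-fold) and Psmb8 (1.83-fold). Interferon-induced genes gave 3 rises and 2 falls in 25, a smaller share than the 36.6% over all genes. The large fall was that of Rsad2, viperin, at 7.80 to 10.35 in MLL-AF10 mice, against 13.72, 13.95, 12.82 and 13.43 in normal mice (31.9-fold lower). Oas3 was 3.25-fold lower and Oas1a rose 2-fold. Mouse AF10_797A had the highest mean over the interferon list, 1.21 above normal marrow, while the other 7 lay between -0.65 and -0.04. Inflammation genes gave 4 rises and 2 falls in 23, with Ccl3, a monocyte chemokine, 6.79-fold higher and Casp1 2.04-fold higher, and Il18 2.36-fold lower.

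Ribosomal protein genes rose in 13 of 14 cases with small changes (median 0.48, and 0.14 with quantile normalization), led by Rpl11 (2.1-fold) and Rps19 (2.04-fold). Ribosome biogenesis genes rose in 9 of 24 cases with 0 lower, including Utp20 (2.18-fold), Rrs1 (1.95-fold) and Mybbp1a (1.83-fold). Glycolysis genes rose in 12 of 18 cases and fell in 4 (median 0.79). Pdk1 was between 9.92 and 10.95 in the 8 MLL-AF10 mice (median 10.47), against 8.69, 9.50, 9.06 and 9.11 in the 4 normal mice. Pdk1, a kinase that inhibits pyruvate dehydrogenase, rose 2.58-fold, Tpi1 2.48-fold and Aldoc 2.41-fold. The falls included the lactate carrier Slc16a1 (7.82-fold lower) and the glucose carrier Slc2a3 (7.09-fold lower). Oxidative phosphorylation genes gave 4 rises (14.8%) and 0 falls in 27, a smaller share higher than the 24.8% over all genes. Their median was 0.07, and -0.05 with the intensities as deposited. The largest rise was that of Cycs, cytochrome c (1.91-fold). Among 19 chaperones 6 rose (31.6%) and 1 fell (5.26%), against 24.8% and 11.8% over all genes. Hspa5 and Hsp90b1, both of the endoplasmic reticulum, rose 2.4-fold and 1.85-fold, and Dnajb1, of the cytosol, fell 2.35-fold. In the serine, one-carbon and ATF4 list 5 rose and 5 fell of 25, with Atf5 2.13-fold higher and Phgdh and Asns 1.97-fold and 1.95-fold lower. Shmt2, a mitochondrial enzyme of the list, rose 2.78-fold on a probe set that may cross-hybridise, and its other kept probe sets differed by 0.71, 0.37 and 0.37, the first of them called. Lipid synthesis genes gave 3 rises and 3 falls in 23, among them Scd1, a fatty acid desaturase (4.29-fold lower), Abca1 (3.09-fold lower) and Dhcr7 (2.01-fold higher).

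Among the genes of cell division, calls were in 1 direction for mitosis and replication and in both for G1. Of 29 mitosis genes measured, 15 fell and 0 rose, with a median of -0.58. The list's mean difference from normal marrow ran from -0.97 to -0.34 in MLL-AF10 mice, below the normal mice, at -0.17 to 0.19. Cdc25b was between 8.95 and 9.57 in the 8 MLL-AF10 mice (median 9.29), against 11.98, 11.85, 11.39 and 12.09 in the 4 normal mice. Cdc25b, the phosphatase that starts mitosis, was 5.88-fold lower (adjusted p = 2.91e-14), Ube2c 3.1-fold, Nusap1 2.78-fold, Ccna2, cyclin A2, 2.54-fold and Birc5, survivin, 2.38-fold. DNA replication genes fell in 7 of 29 cases (24.1%, against 11.8% over all genes) with 0 higher. Their median was -0.11, which was 0.02 with the arrays of the second set alone. The list's mean difference ran from -0.67 to 0.32 in MLL-AF10 mice and overlapped the normal mice, at -0.31 to 0.26. The falls were led by Rrm2, a subunit of ribonucleotide reductase (2.54-fold lower), and Cdc6 (2.13-fold). Cdc45 (0.43 ± 0.19) was not called, nor was Orc1 (-0.53 ± 0.27), of which another kept probe set fell by 0.94 (adjusted p = 0.00118). Among 22 G1 regulators 10 fell and 3 rose. E2f2 was 5.23-fold lower, Ccnd2, cyclin D2, 3.26-fold, Ccne1 2.67-fold and Rb1, the retinoblastoma protein that holds back E2F factors, 2.33-fold, while Cdk6, named above, and the CDK inhibitors Cdkn2c (2.01-fold) and Cdkn1a (1.62-fold) rose.

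The shares called in the BCL2, inflammation and Wnt, Notch and TGF-beta lists were not far from the 24.8% higher and 11.8% lower over all genes, and their counts say little about the lists. Genes of the p53 pathway rose in 5 (23.8%) and fell in 6 (28.6%) of 21 cases, a larger share lower than over all genes. The median of the p53 list was -0.08 and changed sign in 2 alternatives. Pmaip1, Noxa, rose 4.02-fold, at 8.99 to 10.60 in MLL-AF10 mice and 7.62 to 7.95 in normal mice. Gadd45a, a stress gene, was 7.38-fold lower, Btg2 2.83-fold and Sesn1 2-fold. In the BCL2 family 3 of 14 rose, Pmaip1, Bcl2l2 (2-fold) and Bid (1.87-fold), and 1 fell, Bcl2l1, the survival factor of late red cell precursors (5.02-fold lower). Immediate early and feedback genes gave 3 rises and 5 falls in 25. Ier5 (3.06-fold) and Jund (2.2-fold) were lower. For Spry2 (2.16-fold higher) another kept probe set was called lower, by 1.16 (SE 0.33). Of 29 Wnt, Notch and TGF-beta genes 9 rose and 3 fell: Rbpj, the Notch effector, rose 1.93-fold, and Lef1 and Tgfbr2 were 2.42-fold and 2.18-fold lower.

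The 8 mice were not alike. The genes with the largest spread among them were Stfa2l1, Stfa3, Saa3, Camp, Pla2g7, Vcan, Ltf, Rps4l, Prg2 and Lifr, in that order, with SDs from 1.72 to 2.49 against a median SD of 0.31 over autosomal genes. Stfa2l1, a stefin, was at 14.34 in mouse AF10_805A, 14.26 in AF10_782A, 13.71 in AF10_798A, 13.02 in AF10_797A, 12.37 in AF10_780A, 11.98 in AF10_802A, 10.09 in AF10_783A and 6.99 in AF10_799A, against 10.72 to 12.31 in normal mice. Camp, the cathelicidin of neutrophil granules, was lowest in the same mouse AF10_799A, at 10.45, and highest in AF10_798A, at 15.53, close to the normal 15.19 to 15.85. A second pattern set mice AF10_799A and AF10_782A apart from the rest. Vcan, a proteoglycan that monocytes make, was at 11.65 and 10.82 in AF10_782A and AF10_799A and between 6.64 and 8.82 in the other 6. Saa3, an acute phase protein, reached 13.66 in AF10_799A and 10.83 in AF10_782A, and Pla2g7, a phospholipase of macrophages, 11.98 and 11.40. Prg2 followed neither pattern and was highest in AF10_783A (11.56) and next in AF10_797A (9.29). Lifr was highest in AF10_799A (10.90), AF10_780A (10.37) and AF10_782A (10.14). Rps4l read 9.87 in AF10_782A and 9.16 in AF10_798A and at most 6.01 in the other 6, but it is a near copy of an X-linked ribosomal gene and the probe set may not tell them apart. Stfa2l1, Stfa3, Camp and Ltf all averaged higher in the 3 mice of the first array set than in the 5 of the second (Camp 15.09 and 12.62). These values describe single mice, and no test was made among them.

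**Figure D4:**
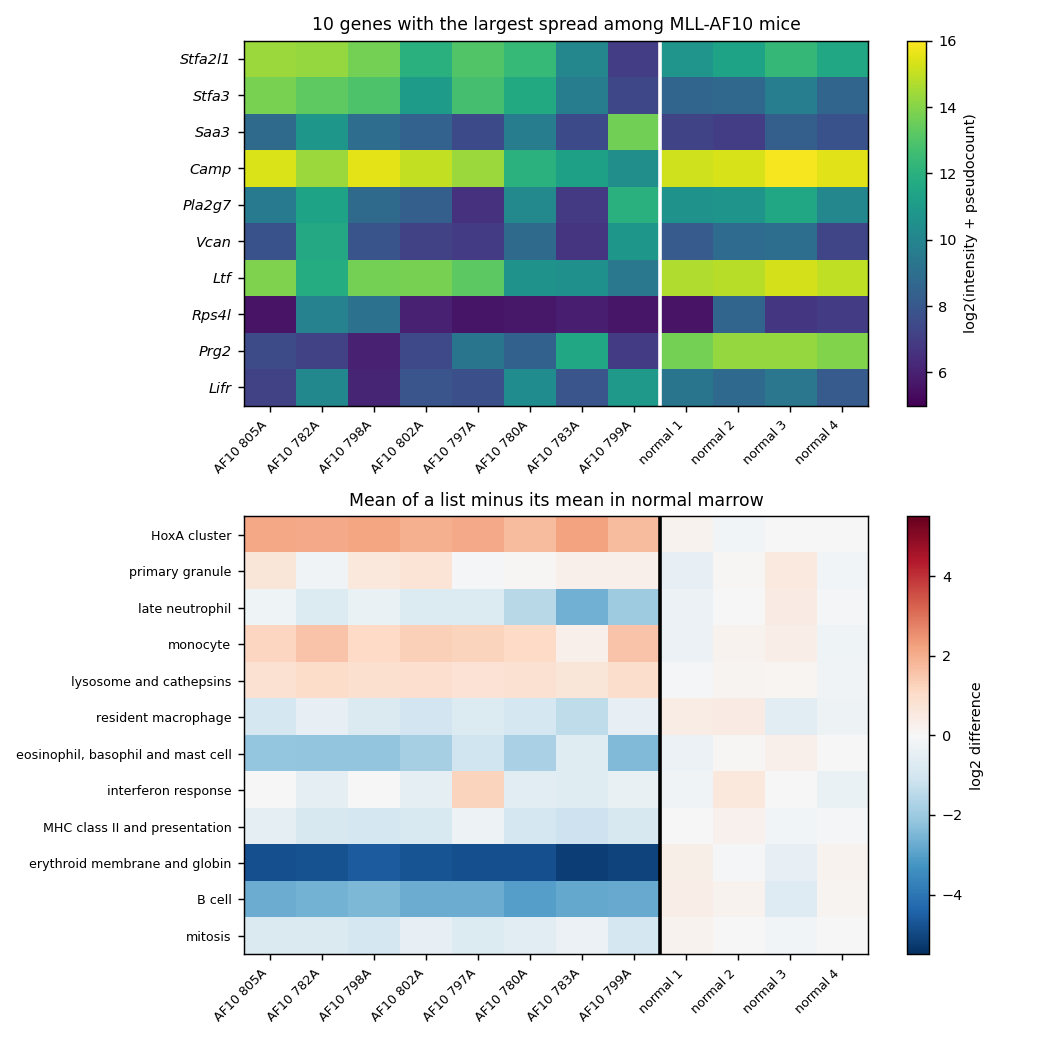
Upper panel, log2(intensity + pseudocount) of the 10 genes with the largest spread, in the 8 MLL-AF10 mice (left of the white line) and 4 normal mice. Lower panel, mean of 12 gene lists in each mouse minus the normal mean (log2): the red cell list is between -5.17 and -4.59 in all 8 mice, while the late neutrophil list runs from -2.63 to -0.22.

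Against the mean of the other 4 cohorts, few genes set MLL-AF10 apart: 25 were higher (0.195%) and 12 lower (0.0934%) of 12850, and 1278 had an unadjusted p under 0.05. Mycn was again first, 3.65 (SE 0.23) higher, or 12.6-fold, with adjusted p = 3.71e-14. Its lowest MLL-AF10 mouse, at 15.04, was above the highest of the other 26 leukaemias, at 13.16, whose cohort means were 11.63 in MLL-AF1p, 12.14 in MLL-ENL, 11.38 in MLL-AF9 and 12.11 in MLL-GAS7. The second Mycn probe set differed by 0.19 (adjusted p = 0.793). Ms4a6d, of monocytes, was 3.02-fold higher than in the other cohorts, Gpnmb 2.79-fold, Sash1 2.66-fold and Akr1c13, an aldo-keto reductase, 2.46-fold (adjusted p from 0.00741 to 0.0445). These 4 genes were not high in MLL-AF10 alone: MLL-AF1p averaged 10.75, 10.91, 10.59 and 9.61, beside MLL-AF10 means of 10.81, 11.10, 10.63 and 9.62. The other kept probe set of Gpnmb differed by 0.82 from the other cohorts and was not called (adjusted p = 0.0709 over all kept probe sets). That of Ms4a6d differed by 1.65 and was called (adjusted p = 0.0348). St3gal6, a sialyltransferase, was 3.74-fold higher on a probe set whose name marks possible cross-hybridisation, and its other 2 kept probe sets differed by 0.03 and 0.01 from the other cohorts.

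The 6 lowest against the other cohorts were smaller differences. Spred2, an inhibitor of RAS signalling, was 0.87 lower (log2, SE 0.16, adjusted p = 0.00741), and Cdkn1a, the CDK inhibitor p21, 0.72 lower (adjusted p = 0.0175) although it rose against normal marrow. Tmem212, Trp53i11, Dcun1d1 and Prss16 were between 0.73 and 0.86 lower. Of these, Prss16 averaged 10.01 in MLL-AF10 and 10.01 in MLL-ENL, and Dcun1d1 averaged 10.18 in MLL-AF10 and 9.96 in MLL-AF1p, so their low level was shared with another cohort. Cdkn1a averaged 9.20 in MLL-AF10, 9.33 in MLL-AF1p, 10.60 in MLL-ENL, 9.81 in MLL-AF9 and 9.94 in MLL-GAS7, with 8.51 in normal marrow. The other kept probe set of Cdkn1a differed by -0.64 from the other cohorts and was not called (adjusted p = 0.22 over all kept probe sets). For Dcun1d1, a further kept probe set was called (-0.75, adjusted p = 0.0148), while those at -0.56, -0.54 and -0.38 were not.

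Some genes outside the naming rule were looked at after their values were seen. Skida1, a gene of unsettled function, lies 6.71 kb from Mllt10 on chromosome 2 in build GRCm38.p6. It was at 8.34 to 9.26 in MLL-AF10 mice, against 5.95, 6.45, 5.68 and 5.94 in normal mice, and 2.38-fold higher than the mean of the other cohorts (adjusted p = 0.00741). Mllt10 itself differed by 0.29 from the other cohorts on the probe set that stood for it (adjusted p = 0.367 over genes, 0.278 over all kept probe sets). Its other kept probe sets differed by 0.88, 0.14 and 0.10 (adjusted p = 0.0138, 0.81 and 0.835 over all kept probe sets). Bbx, a protein with an HMG box, was 2.42-fold higher than the mean of the other cohorts, on all 5 of its kept probe sets, with 11.24 in MLL-AF10, 11.98 in MLL-AF1p, 9.28 in MLL-ENL, 9.25 in MLL-AF9 and 9.33 in MLL-GAS7. Cdkn2c was 2.15-fold higher (adjusted p = 6.44e-05).

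**Figure D5:**
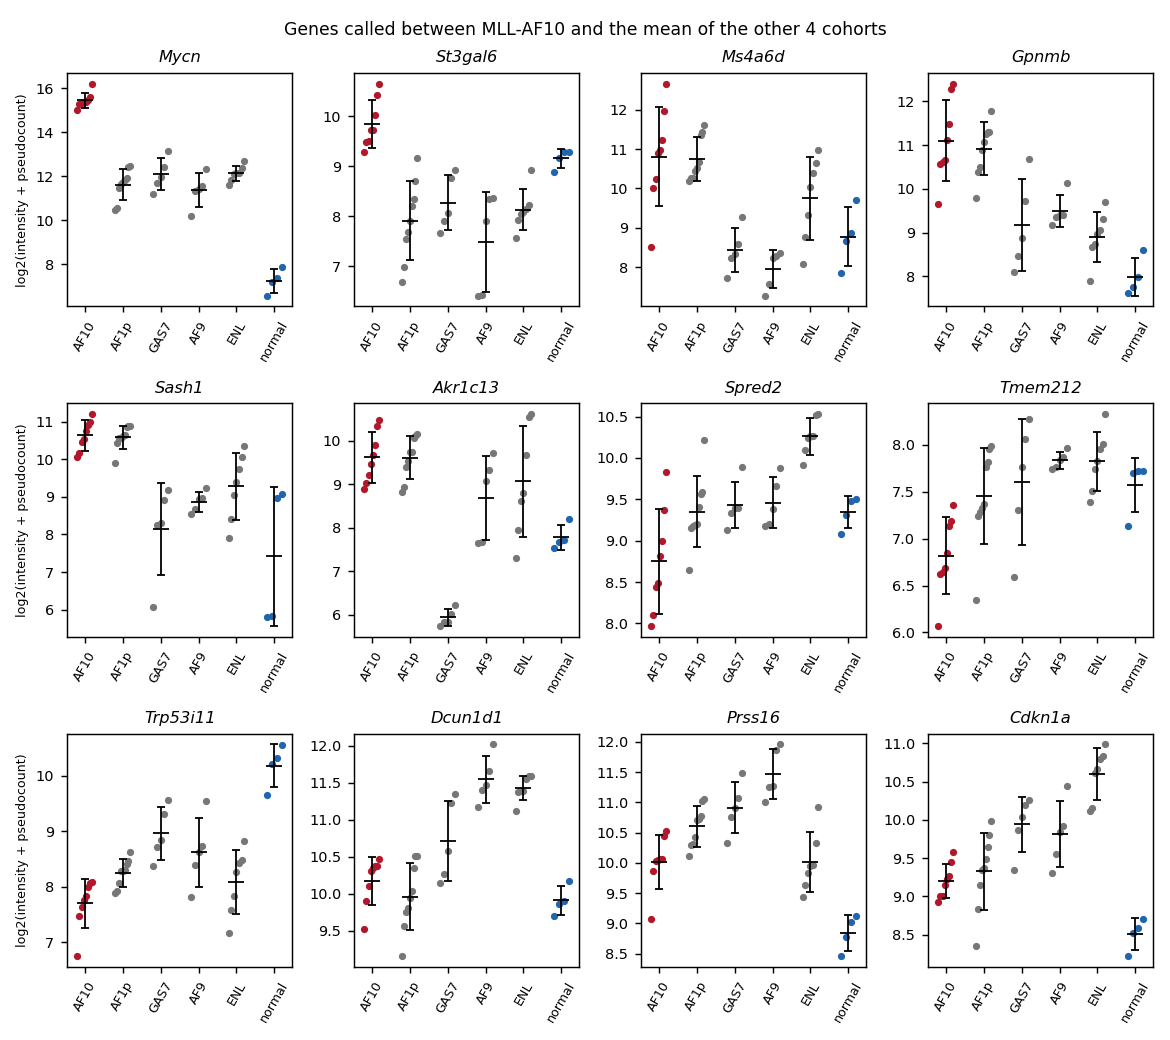
log2(intensity + pseudocount) of the 6 highest and 6 lowest genes of MLL-AF10 against the mean of the other cohorts, in each mouse of MLL-AF10, the other 4 cohorts and normal marrow, with mean and SD. Mycn separates the 8 MLL-AF10 mice (15.04 or more) from all other mice, and for Gpnmb, Sash1 and Akr1c13 the MLL-AF1p mice lie with them.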

How the data were processed

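Whole bone marrow RNA was measured on 38 Affymetrix arrays, labelled by in vitro transcription per the labels' protocols. The values are the intensities the authors deposited, 1 per probe set and array, which were tested here to have a 2% trimmed mean of 500 on every array. The software that made them was not given in the sources used here. Of 45101 probe sets, 34958 have 1 gene symbol in the platform annotation and 9147 have none. Intensities were turned to log2 after adding a pseudocount of 46.1, the 25th percentile, and arrays were then brought to a common median. Kept probe sets exceeded the median of the array on 4 or more arrays, and the brightest kept probe set stood for each of 13333 genes. Of these, 408 on chromosomes X and Y and 75 with no autosomal place were set aside after the fit. The number of arrays limits the precision.

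The 6 group means were fitted to all 38 arrays with limma 3.58.1 in R 4.3.3, with 32 residual degrees of freedom, and p-values were adjusted by Benjamini-Hochberg over all genes. Python 3.11.15 (pandas 2.3.3, numpy 2.4.6, scipy 1.17.1, matplotlib 3.10.9) made the tables and figures. On simulated data for this comparison (13333 genes, 200 of them changed) the script called 17.9% of 1.5-fold, 68.7% of 2-fold and 100% of 4-fold changes, with 4 false calls. The simulated noise was independent between genes, and far fewer genes changed than the 4703 called here. These rates therefore do not carry over to the real comparison. RNA quality signs were compared by exact permutation, two-sided, adjusted over 4 signs. The lists held 950 genes, of which 801 were measured on autosomes. The named genes are the 12 largest rises and falls, the 6 highest and 6 lowest against the other cohorts, the largest changes within each list, the genes with the largest spread or separation, and the parents of the fusion. Members and lists were chosen with earlier results of these data known. Labels do not name separate cultures or donors for the transplanted cells, so p-values measure the spread between mice. That spread was pooled over the 6 groups of the fit and is not that of the MLL-AF10 and normal mice alone. No pair of arrays was identical, the highest correlation being 0.9698.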

Additional observations from a re-analysis of the deposited data

Results flagged for a closer look

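In 36 of 488 gene and group values checked, 1 mouse lay apart from the rest of its group by Dixon's rule, which chance alone meets in about 1 group of 20. Mouse AF10_783A stood apart for 7 genes: it was at 13.22 for Csf1r (others 13.93 to 14.33), 9.08 for Klf4, 9.06 for Tfeb and 8.61 for Kdm7a, all below the other MLL-AF10 mice. The same mouse was low for Btg2 (9.16) and Tubb1 (6.26) and high for Dhcr7 (10.67). Mouse AF10_799A was at 7.02 for Eya1 (others 10.52 to 12.14), 7.71 for Siglecf (others 9.73 to 11.16) and 9.08 for Prss16, and was high for Gclm at 10.92. Mouse AF10_798A was high for Mycn at 16.21 (others 15.04 to 15.59), Epb42 (7.45), Rag1 (6.65) and Hoxa11 (8.77), and low for Rhag (5.88). Mouse AF10_805A was high for Aff3 (7.40) and low for Orc1 (7.52). Mouse AF10_802A was low for Aqp1 at 6.07, and mouse AF10_780A for Trp53i11 at 6.75.

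Among the normal mice, mouse 1 stood apart for Itga4 at 9.62 (others 11.69 to 11.87), Gata2 (9.64), Hoxa7 (6.35), Pbx3 (8.89) and Tmem212 (7.14). Normal mouse 3 stood apart for Aff3 (9.37), Car2 (14.55), Gclc (10.70), Rhag (12.05), Rrm2 (13.46) and Stfa3 (9.70). Normal mouse 4 was low for Bbx (8.65), Casp1 (8.82), Cd68 (10.36) and Ctsa (10.98), and normal mouse 2 for Prdm1 (7.30).

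The difference between MLL-AF10 and the mean of the other 4 cohorts passed its own test in limma for the 6 highest and 6 lowest genes, which were chosen by that test. On the log2 scale it was 3.65 for Mycn, 1.90 for St3gal6, 1.59 for Ms4a6d, 1.48 for Gpnmb, 1.41 for Sash1 and 1.30 for Akr1c13. It was -0.87 for Spred2, -0.86 for Tmem212, -0.78 for Trp53i11, -0.74 for Dcun1d1, -0.73 for Prss16 and -0.72 for Cdkn1a. Skida1, Bbx, Cdkn2c and Itgb5, named for other reasons, also passed it. Outside the named genes, 1394 of 5102 kept probe sets without a single gene symbol were called between MLL-AF10 and normal marrow, 1003 of them higher and 391 lower.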

How the results depend on the processing

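The number of genes called against normal marrow was 4703 and ranged from 3879 to 4697 when 1 mouse was left out (2549 to 3255 higher, 1297 to 1501 lower). Over the other alternatives it ranged from 3829 to 5439, and within the second array set, an alternative chosen after seeing the data, 4224 of the calls (89.8%) were shared. The number called against the other 4 cohorts was 37. It was 70 with the intensities as deposited, 75 with quantile normalization, 85 with array weights and 4 within the second array set. Leaving out 1 mouse gave 12 to 46, with 12 without mouse AF10_799A, 15 without AF10_782A, 21 without AF10_798A and 22 without AF10_797A. Averaging probe sets turned Spry2 to -0.03 and St3gal6 to -1.68 against normal marrow, and leaving out probe sets whose names mark possible cross-hybridisation turned St3gal6 to -2.82, since these genes have probe sets that differ in direction. Calls of Myc, Camp, Derl3, Saa3, Stfa3, Lpl, Elane, Fcnb, Hmox1, Ldb1, Mllt1, Mtf2, Mybbp1a, Shmt2, Oas1a, Cdkn1a and Tmem212 against normal marrow were lost in at least 1 alternative, and the cause was not tested. List medians changed sign in at least 1 alternative for Polycomb, interferon, oxidative phosphorylation, serine and ATF4, DNA replication, p53, BCL2, oxidase and DNA methylation genes. No paired analysis was possible because mouse numbers of the leukaemic and normal groups are not shared. Probe sets near the bottom of the scale give folds that are too small.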
